A study of Mus musculus with 70 samples.

Results

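The mouse liver was compared at ZT17 with ZT5 in male offspring of 4 weeks, that is, at times 12 h apart in the dark and in the light. Zeitgeber time (ZT) counts hours from lights on at ZT0, with lights off at ZT12. The libraries were taken by the age and time given for each mouse, with both maternal diets together, which gave 12 of the 70 mice of the series, 6 at each time. All were wild-type C57BL/6 mice. Their dams ate either a control diet (Ctr, AIN-93G) or a high-fat diet (HFD, D12492) before mating and throughout pregnancy, and the offspring were weaned onto standard chow. The 4 groups were Ctr offspring at ZT5, HFD offspring at ZT5, Ctr offspring at ZT17 and HFD offspring at ZT17, each of 3 mice, and each mouse gave 1 library of poly-A RNA. Total counts were between 16052067 and 19605187 per library. The comparison asks which liver transcripts differ between the middle of the light phase and the middle of the dark phase soon after weaning, and whether the maternal diet or the age alters that difference.

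Mice feed mainly in the dark, and the liver anticipates and follows feeding with daily changes in gene expression. In the molecular clock, ARNTL (BMAL1) and CLOCK activate the Per, Cry and Nr1d genes through E-box sequences, PER and CRY proteins inhibit that activity, and the NR1D and ROR proteins compete at another element to repress or activate Arntl. Clock outputs, feeding signals, body temperature and glucocorticoids together time sterol and fatty acid synthesis, bile acid synthesis, protein folding and other functions of the liver.

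Levels are given as CPM (counts scaled by TMM to the same library total), as the lowest, the median and the highest of the 6 libraries of a time. A change is the log2 ratio of ZT17 to ZT5 from a model on counts with maternal diet as covariate (edgeR), with its standard error, and a gene was called at a p adjusted over all genes tested under 0.05. In this text "rose" and "fell" refer to ZT17 relative to ZT5 and to called genes. Mice at ZT5 and ZT17 were different animals.

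The tissue label was first checked against markers of 11 cell types. Hepatocyte markers dominated: Alb, the gene of serum albumin, stood at 48296 CPM per kb of gene length, and the 7 hepatocyte markers summed to between 110285 and 150615 CPM at ZT5 and between 122006 and 163276 CPM at ZT17. The most abundant marker was Cd5l at 73.5 CPM per kb for Kupffer cells, Dcn at 30.3 CPM per kb for stellate cells and fibroblasts, Spp1 at 29.9 CPM per kb for cholangiocytes and Clec4g at 14.3 CPM per kb for endothelial cells. The haemoglobin gene Hbb-bs, from blood in the tissue, stood at 411 CPM per kb. Markers of pancreatic acinar cells summed to at most 2.73 CPM in any library, with Amy2b at 0 in all 12, and the adipocyte gene Lep was at 0 in all 12.

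Several libraries stood apart from the others. Gene counts of a library can depart from the average with the GC content of the gene, and that correlation (Spearman's rho) across 12284 genes, which are not independent replicates, was -0.633 in replicate 3 of Ctr at ZT17 and -0.623 in replicate 2 of HFD at ZT17. Replicate 3 of HFD at ZT17 had -0.246, and the other 9 libraries lay between 0.0231 and 0.443. The same 2 libraries had the highest shares of mitochondrially encoded transcripts, 9.46% and 9.56% of counts, against 4.80% to 8.17% in the other ZT17 libraries and 5.18% to 6.04% at ZT5. Between the times, this share averaged 7.59% at ZT17 and 5.71% at ZT5 (exact permutation within diets, two-sided, p = 0.06, and 0.1 adjusted over 5 library measures). By the same exact permutation within diets total counts averaged 17475500 at ZT17 and 18625100 at ZT5 (p = 0.04), and the 10 most abundant genes took 24.3% and 22.6% of counts (p = 0.045), both also with 0.1 adjusted, while genes detected averaged 17370.7 and 17683.8 (p = 0.195). Replicate 1 of Ctr at ZT17 had the fewest genes detected, 16248, against 17411 to 17979 elsewhere. In replicate 1 of Ctr at ZT5, 502 of 12288 genes (4.09%) lay far from the other 5 libraries of that time by Dixon's ratio of gap to range, 390 of them above, while replicate 3 of Ctr at ZT17 had 251 such genes and the others 35 to 147. Genes of the acute phase response, picked after their values were seen, were high in that Ctr mouse at ZT5: Saa1 stood at 483 CPM against 18.9 to 39.1 in the other 5 mice, Lcn2 at 294 against 6.32 to 17.3, and Hp at 7670.2 against 2114 to 3003. With this mouse Lcn2 and Hp had changes of -0.88 and 0.09 from ZT5 to ZT17 and were not called, and without it they had 0.95 (adjusted p = 0.00191) and 0.49 (0.0176) and were called. Saa1, Saa2 and Orm2 went from -0.68, -1.45 and -0.37 to 0.80, 0.39 and 0.76, not called in either fit. Calls that were lost without these libraries are pointed out with the genes.

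Of 16858 genes tested, 1381 rose (8.19%) and 1192 fell (7.07%), 2573 in all (15.3%). At an unadjusted p under 0.05 there were 4983 genes. DESeq2 called 3332, and without replicate 1, 2 or 3 of every group, fits of 8 libraries, 2529, 915 and 1002 were called. A change of at least 2-fold was found in 346 of the genes that rose (2.05% of those tested) and 414 of those that fell (2.46%), 760 in all (4.51%). For 682 genes (4.05%) every ZT17 library lay above every ZT5 library and for 642 (3.81%) every one lay below, together 7.85% of the genes tested. The genes that rose were more abundant and had a lower GC content than those that fell, with a median of 30.5 CPM and 46.8% GC against 11.4 CPM and 52.1% GC, while all genes tested had medians of 6.82 CPM and 49.3% GC. The GC correlation of the libraries themselves averaged -0.0988 at ZT17 and 0.192 at ZT5 (exact permutation within diets, two-sided, p = 0.195). Median gene length was 3429 bases for genes that rose, 4990 for genes that fell and 3740 for all. With GC content as a covariate, 2984 genes were called, 2138 of them among the 2573. Without the 2 libraries of lowest GC correlation, an alternative chosen after seeing the data, 2437 were called, 1887 of them shared. Without replicate 1 of Ctr at ZT5, 2451 were called and 2183 shared. No gene called in the comparison changed direction in any of these.

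Clock genes were among the genes of largest change. Of the 22 clock genes measured, 12 rose (54.5%, against 8.19% of all genes) and 3 fell (13.6%, against 7.07%), and their median change was 0.62 against -0.01 over all genes. With 1 library left out 9 to 12 rose (median 0.50 to 0.67). Without replicate 1, 2 or 3 of every group 9 rose (median 0.37 to 0.65), and 3 fell in all these fits. Nr1d1, which encodes the repressor REV-ERBα (ENSMUSG00000020889, chromosome 11, 98767932 to 98775333), had 27.9, 52.1 and 83.6 CPM at ZT5 and 0.920, 1.38 and 1.97 CPM at ZT17. The lowest ZT5 library stood far above the highest at ZT17. Nr1d1 fell by 5.31 ± 0.26 on the log2 scale (adjusted p = 2.76e-09), the largest change of any gene named here. It overlaps the gene Thra on the other strand, and the strand setting of the counting is not known. Nr1d2, its REV-ERBβ relative (ENSMUSG00000021775, chromosome 14, 18204054 to 18239127), had 65.6, 77.1 and 102 CPM at ZT5 and 21.02, 28.6 and 51.4 CPM at ZT17. Its highest library at ZT17, a Ctr mouse, still lay under all at ZT5, and the change was -1.34 ± 0.18 (adjusted p = 0.000143).

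Several other clock genes rose. Cry1, a repressor that binds CLOCK and ARNTL (ENSMUSG00000020038, chromosome 10, 85131700 to 85185064), had 4.32, 7.28 and 9.07 CPM at ZT5 and 54.6, 59.2 and 78.5 CPM at ZT17, so that the times were far apart. It rose by 3.13 ± 0.18 (adjusted p = 1.30e-08). Per2 (ENSMUSG00000055866, chromosome 1, 91415982 to 91459324), which encodes a partner of the CRY proteins, had 3.07, 6.82 and 9.85 CPM at ZT5 and 29.98, 41.5 and 56.9 CPM at ZT17 and rose by 2.59 ± 0.23 (adjusted p = 3.48e-06). Arntl (ENSMUSG00000055116, chromosome 7, 113207465 to 113314126) had 8.67, 11.4 and 16.6 CPM at ZT5 and 20.8, 27.1 and 29.2 CPM at ZT17 and rose by 1.08 ± 0.17 (adjusted p = 0.000549). Per3 rose by 1.83 ± 0.21, from 4.24 to 13.8 CPM at the median, and Cry2 by 0.82 ± 0.13, neither with an overlap between times. Per3 overlaps Camta1. Per1, the light-responsive period gene, showed less separation: it had 13.4, 19.9 and 27.7 CPM at ZT5 and 21.98, 30.5 and 51.2 CPM at ZT17. It rose by 0.75 ± 0.23 (adjusted p = 0.0315), a call lost when any 1 of 5 libraries was left out. In those fits its change was 0.58 to 0.68 (adjusted p between 0.0652 and 0.0827). The libraries were replicate 1 of Ctr at ZT17, 3 of Ctr at ZT5, 1 of HFD at ZT17, and 1 and 2 of HFD at ZT5. Rora rose by 0.62 ± 0.17 (adjusted p = 0.0229), with adjusted p-values between 0.0514 and 0.0662 without replicate 3 of Ctr at ZT17, 2 of Ctr at ZT5, 3 of HFD at ZT17, or 1 or 2 of HFD at ZT5, and 0.101 without the 2 libraries of lowest GC correlation.

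The PAR bZIP factors, which bind D-boxes and pass clock time on to metabolic genes, did not move together. Dbp (ENSMUSG00000059824, chromosome 7, 45705088 to 45710203) had 5.77, 18.2 and 43.4 CPM at ZT5 and 2.02, 4.70 and 5.97 CPM at ZT17. The lowest mouse at ZT5, replicate 1 of Ctr, lay within the range of ZT17, and Dbp, which overlaps Sphk2, fell by 2.20 ± 0.39 on the log2 scale (adjusted p = 0.00115). Its relatives went the other way: Hlf rose by 0.62 ± 0.16 (adjusted p = 0.0142) and Tef by 0.62 ± 0.17 (adjusted p = 0.0188), the latter with an adjusted p of 0.0504 without replicate 1 of HFD at ZT5. Nfil3, whose protein represses the same sites, had 20.9, 22.96 and 42.02 CPM at ZT5 and 45.9, 54.3 and 61.4 CPM at ZT17 and rose by 1.04 ± 0.15 (adjusted p = 0.000196). Ciart, a repressor of the clock, was scarce, with 0.155, 0.483 and 1.05 CPM at ZT5 and 0.733, 2.47 and 4.80 CPM at ZT17, and rose by 2.33 ± 0.46 (adjusted p = 0.00244). The remaining 7 clock genes were not called. Among them Clock had 46.3, 60.5 and 76.3 CPM at ZT5 and 49.3, 68.4 and 89.5 CPM at ZT17 (log2 change 0.19), Bhlhe40 had a change of 0.09, and Npas2 and Bhlhe41, which stayed at low levels, had -0.60 and -1.34. The kinases Csnk1d and Csnk1e, which act on PER proteins, had changes of -0.09 and -0.15.

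**Figure D1:**
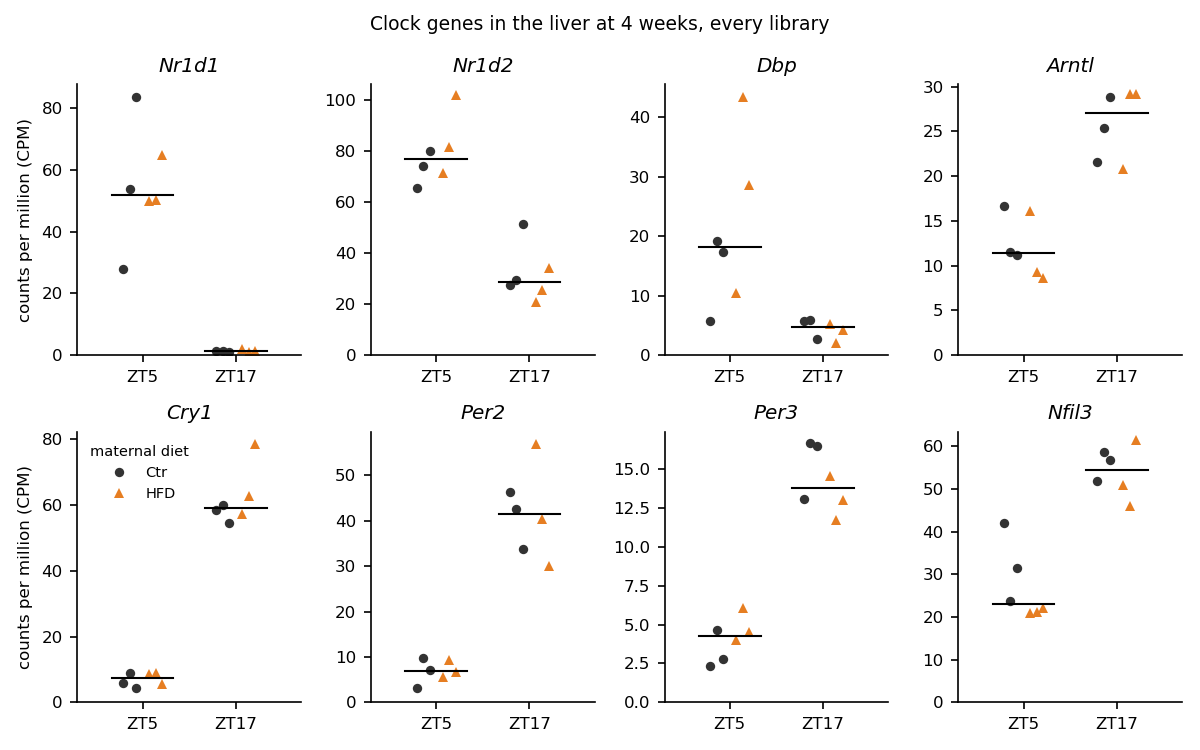
Levels of 8 clock genes in CPM in each of the 12 libraries at 4 weeks, with ZT5 and ZT17 on the horizontal axis, circles for Ctr, triangles for HFD and a line at the median of the 6 libraries of a time. Nr1d1, Nr1d2 and Dbp are lower at ZT17 and the other 5 genes are higher, and the times overlap for Dbp alone.

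Promoters of clock genes were read for the elements through which the clock acts, because clock genes were among the genes of largest change. Windows of 300 bases, from 250 before to 50 after a gene's start, were taken from RefSeq on build GRCm38.p6, and 17 of the 22 clock genes had at least 1. The letters were searched on both strands: CACGTG for the E-box, AGGTCA for the core of the ROR element, and TTATGTAA or TTACGTAA for the D-box. An E-box was found in 5 of the 17 genes (29.4%), against 11.1% of the 11646 tested genes with a window and 7.15% of all 32851 windows. The ROR core was found in 5 (29.4%, against 15.7% and 16.3%) and a D-box in 1 (5.88%, against 0.936% and 1.06%). The first 2 shares were not peculiar to the clock list. In the 4 other lists searched, the ROR core was in 35.3% of fatty acid synthesis, 26.3% of cytosolic chaperone, 17.6% of sterol synthesis and 15.8% of cell cycle genes with a window, and the E-box in 17.6%, 10.5%, 23.5% and 5.26%. The D-box was in 0 of them. Genes with an E-box were Tef, Cry1, Per1, Ciart and Bhlhe41, of which the first 4 rose. Those with the ROR core were Nr1d2, Clock, Nfil3, Per1 and Arntl. A match is a description of letters, not of a bound site, and these short motifs occur by chance. The windows of Cry1 (chr10:85185005-85185304, minus strand), Arntl (chr7:113207261-113207560, plus strand) and Per3 (chr4:151044616-151044915, minus strand) are shown 5′ to 3′ along the gene, with the matches in capitals, as 1 example for each element.
Cry1: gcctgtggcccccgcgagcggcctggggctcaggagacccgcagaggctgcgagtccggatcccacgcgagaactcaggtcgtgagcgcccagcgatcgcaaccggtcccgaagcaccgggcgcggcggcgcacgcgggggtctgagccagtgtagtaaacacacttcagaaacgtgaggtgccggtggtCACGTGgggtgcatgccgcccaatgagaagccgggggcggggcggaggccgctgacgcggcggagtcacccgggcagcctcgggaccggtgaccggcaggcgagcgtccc
Arntl: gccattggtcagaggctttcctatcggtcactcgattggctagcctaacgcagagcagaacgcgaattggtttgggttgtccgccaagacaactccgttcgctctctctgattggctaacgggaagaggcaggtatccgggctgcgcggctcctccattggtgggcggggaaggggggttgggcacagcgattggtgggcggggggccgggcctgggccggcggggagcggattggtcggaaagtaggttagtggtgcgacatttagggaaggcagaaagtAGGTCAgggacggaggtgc
Per3: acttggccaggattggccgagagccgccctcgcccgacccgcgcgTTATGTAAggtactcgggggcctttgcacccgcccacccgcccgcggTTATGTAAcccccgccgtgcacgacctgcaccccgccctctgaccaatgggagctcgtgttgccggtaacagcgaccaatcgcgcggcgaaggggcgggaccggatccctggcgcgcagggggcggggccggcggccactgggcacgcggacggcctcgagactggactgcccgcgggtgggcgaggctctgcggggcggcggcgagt

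The 4-week counts of every list that follows stand against the 8.19% of all genes that rose and the 7.07% that fell. The lists, the clock list included, were chosen with earlier results of these data known. Their ranges come from fits with 1 library left out, or without replicate 1, 2 or 3 of every group. Those fits have their own counts over all genes. Without replicate 1, 2 or 3 of every group, 1308 of 17127, 507 of 16969 and 542 of 16881 genes rose. In the same fits 1221, 408 and 460 fell. With 1 library left out 1010 to 1480 genes rose and 885 to 1271 fell. Of 25 sterol synthesis genes measured, 11 rose (44%) and 0 fell (edgeR; DESeq2 gave 11 up and 0 down), with a median change of 0.44. With 1 library left out 9 to 13 rose, and without replicate 2 of every group 5 rose (median 0.21). Insig1, which retains the SREBP activators in the endoplasmic reticulum (ER; ENSMUSG00000045294, chromosome 5, 28071363 to 28078662), had 213, 259.6 and 313 CPM at ZT5 and 578, 646 and 704 CPM at ZT17. The ranges did not overlap, and it rose by 1.30 ± 0.12 (adjusted p = 3.92e-06). The letters CACCCCAC, for the core of the sterol regulatory element, were searched in promoter windows as above. They were in 2 of 17 sterol synthesis genes with a window and in as many clock genes (11.8% each), against 3.86% of tested genes with a window and 2.87% of all windows, and in 5.88% of fatty acid synthesis, 5.26% of cytosolic chaperone and 0 cell cycle genes. The sterol synthesis genes that held them, Hmgcs1 and Acat2, were not called. Of the clock genes that held them, Cry1 rose and Clock was not called. Mvd, an enzyme of the mevalonate pathway, rose by 1.59 ± 0.23.

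Of 21 fatty acid synthesis genes, 9 rose (42.9%, against 8.19% of all genes) and 1 fell, with a median of 0.41. The median was 0.24 without replicate 1 of Ctr at ZT5, and without replicate 1 of every group 4 rose (median 0.04). Thrsp, a regulator of lipogenesis (ENSMUSG00000035686, chromosome 7, 97412938 to 97417730), had 55.9, 138 and 168 CPM at ZT5 and 537, 1348 and 1778 CPM at ZT17, and the lowest ZT17 library, replicate 3 of Ctr, was above every ZT5 library. It rose by 3.36 ± 0.30 (adjusted p = 3.09e-06). Srebf1, the SREBP1 gene and a main activator of the pathway, had 113, 152 and 266 CPM at ZT5 and 220.3, 339.9 and 794 CPM at ZT17. Its ranges overlapped, and it rose by 1.40 ± 0.30 (adjusted p = 0.00505). Pnpla3, a lipid droplet protein, rose by 2.26 ± 0.45 from a low level, with 0.362, 0.758 and 2.19 CPM at ZT5 and 0.999, 4.58 and 6.99 CPM at ZT17, so that the same Ctr mouse at ZT17 lay within the ZT5 range. The gene that fell was Elovl5, an elongase of polyunsaturated fatty acids (-0.57 ± 0.15, adjusted p = 0.0144). Scd1, a desaturase and one of the most abundant members, had 4281, 7574 and 10393 CPM at ZT5 and 2416, 5591 and 7295 CPM at ZT17 and was not called (log2 change -0.57, adjusted p = 0.128) but was with a replicate block (0.0346) or no filter (0.00235).

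Fatty acid oxidation and ketogenesis changed in both directions: 5 of 34 genes rose, 4 fell, and the median was -0.03, which became 0.05 with GC content as a covariate (8 up and 6 down, against 9.12% and 8.58% of all genes). Between 4 and 6 rose and between 4 and 6 fell with 1 library left out. Cpt1a, the gate for fatty acid entry into mitochondria (ENSMUSG00000024900, chromosome 19, 3323301 to 3385732), had 396, 411 and 511 CPM at ZT5 and 161, 220.3 and 309 CPM at ZT17. All 6 mice at ZT17 were lower, and it fell by 0.93 ± 0.13 on the log2 scale (adjusted p = 0.000231). Bdh1, an enzyme of ketone body synthesis, fell by 0.84 ± 0.12 (adjusted p = 0.000157). Fgf21, a hormone gene induced by fasting, had 0.280, 1.97 and 3.78 CPM at ZT5 and 0, 0.192 and 0.398 CPM at ZT17. The ranges overlapped through 1 Ctr mouse at ZT5, and it fell by 3.40 ± 0.65 (adjusted p = 0.00210). The acyl-CoA thioesterase genes Acot3 and Acot4 rose by 2.11 ± 0.37 and 1.05 ± 0.14, though both overlap another annotated gene.

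In glucose and glycogen metabolism 6 of 22 genes rose and 1 fell, with a median of 0.22. Between 5 and 8 rose with 1 library left out, with medians between 0.12 and 0.26, and without a replicate number of every group 2 to 5 rose. Ppp1r3c, which targets protein phosphatase 1 to glycogen (ENSMUSG00000067279, chromosome 19, 36731737 to 36736653), had 26.2, 39.2 and 46.02 CPM at ZT5 and 58.01, 74.3 and 90.1 CPM at ZT17 and rose by 0.96 ± 0.12 (adjusted p = 7.25e-05). The insulin receptor gene Insr fell by 0.34 ± 0.11 (adjusted p = 0.0449). With 1 library left out, it was called only without replicate 3 of Ctr or replicate 3 of HFD at ZT17 (adjusted p between 0.052 and 0.1 otherwise), and it was not called without a filter on low counts (0.119). Pck1, the gluconeogenic enzyme, had 2606, 3416 and 3704 CPM at ZT5 and 1862, 2862 and 3944 CPM at ZT17 and was not called (log2 change -0.13).

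Bile acid and sterol export genes changed in both directions: 4 of 18 rose, 5 fell, and the median was 0.09. Without a replicate number of every group 2 to 4 rose and 2 to 6 fell. Cyp7a1, the rate-limiting enzyme of bile acid synthesis (ENSMUSG00000028240, chromosome 4, 6265612 to 6275633), had 33.7, 148 and 236 CPM at ZT5 and 170.1, 385 and 833 CPM at ZT17. The ranges overlapped, and its rise of 1.55 ± 0.40 (adjusted p = 0.0147) was not called with GC content as a covariate (adjusted p = 0.0932) or without the 2 libraries of lowest GC correlation (0.0841). Cyp39a1, an oxysterol hydroxylase, rose by 1.31 ± 0.17 and Akr1d1, a reductase of the same pathway, by 0.85 ± 0.12, both with no overlap. Nr0b2 encodes SHP, a repressor of Cyp7a1, and fell by 1.12 ± 0.23 (adjusted p = 0.00337). Abcg8, a subunit of the sterol exporter of the canalicular membrane, had 61.02, 88.6 and 105 CPM at ZT5 and 20.4, 35.9 and 43.3 CPM at ZT17 and fell by 1.31 ± 0.16 (adjusted p = 6.61e-05). It overlaps its partner gene Abcg5. Amacr, a racemase of side chain oxidation, fell by 0.61 ± 0.13.

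Amino acid catabolism rose in 10 of 24 genes and fell in 1, with a median of 0.31. With 1 library left out 7 to 11 rose (median 0.19 to 0.43), and without replicate 2 or 3 of every group 3 rose. Asl, which splits argininosuccinate in the urea cycle (ENSMUSG00000025533, chromosome 5, 130011258 to 130029247), had 278, 323 and 398 CPM at ZT5 and 646, 977 and 1356 CPM at ZT17, at ZT17 well above ZT5 in all 6 mice, and rose by 1.51 ± 0.18 (adjusted p = 3.29e-05). Tat, a tyrosine aminotransferase induced by glucocorticoids, had 1181, 2309 and 3392 CPM at ZT5 and 2841, 3828 and 4370.2 CPM at ZT17 and rose by 0.77 ± 0.22 (adjusted p = 0.0244), a call lost without replicate 3 of HFD at ZT17 or replicate 1 of HFD at ZT5 (adjusted p between 0.0595 and 0.0677). Slc7a2, a transporter of cationic amino acids, fell by 0.99 ± 0.23 (adjusted p = 0.00867).

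Of 23 genes of NAD and one-carbon metabolism, 5 rose and 1 fell (median 0.14). The number that rose was 3 to 6 with 1 library left out and 2 without replicate 2 of every group. Nampt, the rate-limiting enzyme of NAD salvage and a known clock target (ENSMUSG00000020572, chromosome 12, 32819545 to 32853349), had 47.03, 51.7 and 79.3 CPM at ZT5 and 101, 142 and 168 CPM at ZT17 and rose by 1.26 ± 0.15 (adjusted p = 4.39e-05), with no overlap. Ahcy, which hydrolyses S-adenosylhomocysteine, rose by 0.92 ± 0.14, and Cbs, which draws homocysteine into transsulfuration, fell by 0.72 ± 0.17. Nnmt, a methyltransferase that uses nicotinamide, rose by 1.32 ± 0.41 (adjusted p = 0.0386). In replicate 1 of Ctr at ZT5 it stood at 327 CPM, within the ZT17 range, and without that mouse its rise was 1.96 (adjusted p = 0.000231), whereas the call was lost for 8 other libraries (0.0551 to 0.101), all but replicates 1 and 3 of Ctr at ZT17 and 2 of HFD at ZT5, and with DESeq2 (0.0531) and GC content as a covariate (0.0579). In the glutathione and NRF2 list of 16 genes, 15 were tested, 3 rose and 2 fell (median -0.09), and 0 to 2 rose without a replicate number of every group. Gclc, the catalytic subunit of glutathione synthesis, fell by 0.95 ± 0.15 (adjusted p = 0.000397), and the antioxidant genes Sod1, Sod2 and Gpx1 rose by 0.47 ± 0.11, 0.46 ± 0.10 and 0.44 ± 0.11.

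Drug metabolism genes rose in 7 of 26 and fell in 1 (median 0.42), and 3 to 7 rose without a replicate number of every group. Cyp2a5, a cytochrome P450 that hydroxylates coumarin (ENSMUSG00000005547, chromosome 7, 26835305 to 26843548), had 134, 189 and 291 CPM at ZT5 and 517, 692 and 871 CPM at ZT17. The times were well apart, and it rose by 1.81 ± 0.19 (adjusted p = 1.03e-05). Cyp2b10, the classic target of the receptor CAR, had 1.63, 3.32 and 7.99 CPM at ZT5 and 4.60, 11.7 and 21.7 CPM at ZT17 and rose by 1.65 ± 0.40 (adjusted p = 0.0101). Gsta3, a glutathione transferase, rose by 1.04 ± 0.11 and Cyp2c55 fell by 1.43 ± 0.26. Cyp2e1, the most abundant P450 of the list, was not called (log2 change 0.45, adjusted p = 0.0799) but was with DESeq2 (0.0421), a replicate block (0.0397), no filter or all 34 libraries (0.0151 for both).

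Of 24 cytosolic chaperone genes, 20 rose and 0 fell (edgeR; DESeq2 gave 21 up and 0 down), the largest share of the 22 lists, and the median was 0.80. The list keeps the name it was given, but 2 of its members, Hspd1 and Hspe1, encode chaperonins of the mitochondrial matrix. Without them, a choice made after seeing the data, 18 of 22 rose (81.8%) and the median stayed at 0.80. Leaving out 1 library at a time gave 18 to 21 that rose, and leaving out a replicate number of every group 13 to 18. Hspb1, a small heat shock protein (ENSMUSG00000004951, chromosome 5, 135887919 to 135889563), had 2.22, 3.56 and 6.22 CPM at ZT5 and 11.8, 17.99 and 18.8 CPM at ZT17. No mouse at ZT5 reached the lowest at ZT17, and it rose by 2.04 ± 0.23 (adjusted p = 2.25e-05). Hsph1, an HSP110 nucleotide exchange factor (ENSMUSG00000029657, chromosome 5, 149614287 to 149636376), had 25.7, 31.9 and 67.2 CPM at ZT5 and 121, 131 and 186 CPM at ZT17 and rose by 1.88 ± 0.18 (adjusted p = 7.67e-06). Hsp90aa1, an HSP90 gene induced by heat, rose by 1.84 ± 0.20 (adjusted p = 1.49e-05). The constitutive chaperone Hspa8 had 802, 934 and 1166 CPM at ZT5 and 1631, 1785 and 2288 CPM at ZT17 and rose by 0.93 ± 0.12 (adjusted p = 6.87e-05). Cirbp, a cold-inducible RNA-binding protein gene, went the other way, with 6.38, 9.12 and 10.1 CPM at ZT5 and 2.26, 4.25 and 4.56 CPM at ZT17 and a change of -1.20 ± 0.19 (adjusted p = 0.000467). The other member of that list, Rbm3, had 11.4, 11.9 and 19 CPM at ZT5 and 10.5, 14.3 and 17.2 CPM at ZT17 and was not called (log2 change 0.01). Body temperature was not measured in these data.

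The heat shock factors bind repeats of GAA in alternating orientation, and the letters GAANNTTC, which read the same on both strands, were searched in the same windows. They were found in 11 of 19 cytosolic chaperone genes with a window (57.9%), against 7.10% of tested genes with a window and 7.86% of all windows. Of these 11 genes, 10 rose, and Hspa1a was not called. Hspd1 and Hspe1 lie head to head and hold 1 match between them, at the same 8 bases, and without these 2 genes the share was 9 of 17 (52.9%). Of the genes with a window that rose 8.38% held the motif, and of those that fell 7.80%. Of the 19 cell cycle genes with a window 5 held it (26.3%), and of 17 each for sterol synthesis, fatty acid synthesis and the clock 2, 1 and 0. The windows of Hspb1 (chr5:135887669-135887968, plus strand, 2 matches at 117 and 97 bases before the start) and Hsph1 (chr5:149636287-149636586, minus strand) from RefSeq on GRCm38.p6 are shown because these genes had the largest rises of the list, with the matches in capitals.
Hspb1: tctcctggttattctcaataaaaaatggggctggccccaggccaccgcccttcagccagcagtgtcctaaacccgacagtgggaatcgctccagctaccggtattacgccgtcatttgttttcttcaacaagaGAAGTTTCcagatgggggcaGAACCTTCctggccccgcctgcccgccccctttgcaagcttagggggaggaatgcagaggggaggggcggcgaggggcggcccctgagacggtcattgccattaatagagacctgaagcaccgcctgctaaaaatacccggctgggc
Hsph1: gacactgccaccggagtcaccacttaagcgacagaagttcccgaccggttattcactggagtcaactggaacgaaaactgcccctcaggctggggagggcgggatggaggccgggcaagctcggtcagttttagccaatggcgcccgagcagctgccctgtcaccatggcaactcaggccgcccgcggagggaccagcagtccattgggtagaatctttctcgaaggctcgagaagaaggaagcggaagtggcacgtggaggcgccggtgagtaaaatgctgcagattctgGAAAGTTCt

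In the ER, chaperone and unfolded protein response genes rose in 10 of 29 and fell in 3 (median 0.46), and 5 to 14 rose without a replicate number of every group. Hspa5, the main ER chaperone BiP (ENSMUSG00000026864, chromosome 2, 34771970 to 34777547), had 447, 534 and 846 CPM at ZT5 and 871, 1383 and 2056 CPM at ZT17. The highest ZT5 library was replicate 1 of Ctr, just under the lowest at ZT17, and Hspa5 rose by 1.29 ± 0.19 (adjusted p = 0.000329). Hyou1, its nucleotide exchange factor, rose by 1.34 ± 0.17 and Dnajb9, a cochaperone, by 1.34 ± 0.25. The genes that fell were Chac1 and Trib3, targets of the ATF4 arm, by 1.77 ± 0.34 and 1.68 ± 0.39, and Derl3, which acts in ER-associated degradation, by 1.90 ± 0.57 (adjusted p = 0.0319). Derl3 stood at 25.6 CPM in replicate 1 of Ctr at ZT5 against 1.87 to 5.35 in the other ZT5 mice, and without that mouse its change was -1.10 (adjusted p = 0.0934). The call was also lost without replicate 1 or 2 of Ctr at ZT17, 2 or 3 of HFD at ZT17, or 1 of HFD at ZT5 (0.0547 to 0.0934 over these 6).

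**Figure D2:**
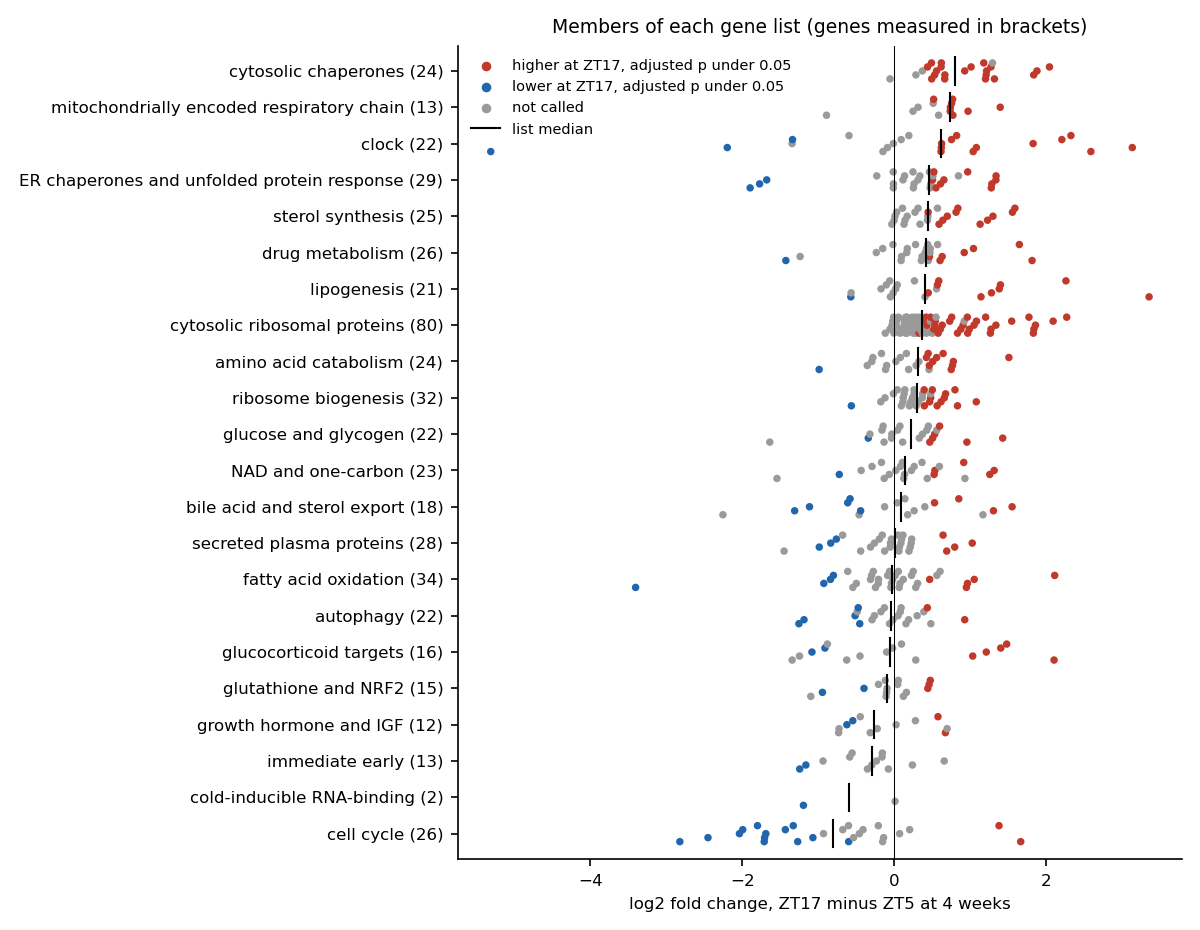
Log2 fold change from ZT5 to ZT17 at 4 weeks (horizontal axis) of every measured member of 22 gene lists, with red points for genes that rose, blue for genes that fell, grey for genes not called and a black bar at the list median. Cytosolic chaperones have the highest median, 0.80, and cell cycle genes the lowest, -0.80.

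Ribosome biogenesis genes rose in 12 of 32 and fell in 1 (median 0.30; 6 to 12 rose with 1 library left out and 3 without replicate 2 of every group). Rrp12, a factor of ribosomal RNA processing (ENSMUSG00000035049, chromosome 19, 41862852 to 41896153), had 3.97, 5.81 and 11.6 CPM at ZT5 and 11.2, 13.8 and 16.2 CPM at ZT17 and rose by 1.08 ± 0.21 (adjusted p = 0.00210). Nop16 rose by 0.83 ± 0.17 and Wdr12 by 0.80 ± 0.13, both with no overlap between times. Ubtf, the factor that activates ribosomal RNA transcription, fell by 0.56 ± 0.14 (adjusted p = 0.0109).

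Cytosolic ribosomal protein genes rose in 32 of 80 tested, with 0 that fell (40 up and 0 down by DESeq2) and a median of 0.37. The rise was uneven among ZT17 mice. Rpl23a had 5.84, 7.15 and 7.83 CPM at ZT5 and 5.00, 19.8 and 75.5 CPM at ZT17, the highest in replicate 3 of Ctr and the next, 63.6 CPM, in replicate 1 of HFD, while 1 ZT17 mouse was below all at ZT5, and it rose by 2.27 ± 0.45 (adjusted p = 0.00283). Rpl39 followed the same order, with 6.49, 9.83 and 12.4 CPM at ZT5 and 10.4, 24.8 and 89.1 CPM at ZT17, and rose by 1.86 ± 0.44. Rplp1, the most abundant member named, was not called (0.29, adjusted p = 0.138). Of the 80, 36 rose with GC content as a covariate (9.12% of all genes) and 31 without the 2 libraries of lowest GC correlation (7.87%), and 25 to 40 rose with 1 library left out. Without replicate 3 of every group, 8 libraries, 10 rose.

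Mitochondrially encoded genes of the respiratory chain rose in 8 of 13, with 0 that fell (9 up and 0 down by DESeq2) and a median of 0.74. mt-Cytb, the cytochrome b subunit, had 8127, 9435 and 10508 CPM at ZT5 and 10679, 16066 and 19211 CPM at ZT17 and rose by 0.74 ± 0.15 (adjusted p = 0.00326), and mt-Nd3, of complex I, had 10.3, 11.5 and 14.6 CPM at ZT5 and 11.1, 36.6 and 43.99 CPM at ZT17 and rose by 1.40 ± 0.25 (adjusted p = 0.00140). The highest mt-Cytb levels were in the 2 libraries of lowest GC correlation, and 5 to 9 genes of the list rose with 1 library left out (2 without replicate 2 of every group). With GC content as a covariate 6 rose and the median was 0.49, and without those 2 libraries 6 rose and the median was 0.51. mt-Co1, of complex IV, rose by 0.52 ± 0.16 (adjusted p = 0.0378) but not with the covariate (0.114), not without those 2 libraries (0.145), and not when any 1 of 9 libraries was left out (0.0567 to 0.111), all but replicate 2 of Ctr at ZT17, 1 of Ctr at ZT5 and 1 of HFD at ZT17. The part of library composition in these mitochondrial and ribosomal protein changes was not tested further.

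Of 26 cell cycle genes, 13 fell (50%, against 7.07% of all genes), 2 rose (7.69%, against 8.19%), and the median was -0.80 (11 to 15 fell with 1 library left out). Ccnb1, cyclin B1, which drives entry into mitosis (ENSMUSG00000041431, chromosome 13, 100778650 to 100786570), had 3.51, 7.11 and 10.1 CPM at ZT5 and 0.171, 1.06 and 1.60 CPM at ZT17. Each ZT5 mouse exceeded each ZT17 mouse, and it fell by 2.82 ± 0.37 on the log2 scale (adjusted p = 8.85e-05). Cdc20, an activator of the anaphase-promoting complex that overlaps Elovl1, had 3.00, 9.29 and 11.96 CPM at ZT5 and 0.599, 1.48 and 2.59 CPM at ZT17 and fell by 2.45 ± 0.32 (adjusted p = 8.87e-05), and the mitotic kinase gene Plk1 fell by 2.04 ± 0.41. Among the largest falls of genes outside the list, Kif20a, a kinesin of cytokinesis, fell by 2.45 ± 0.41, the kinetochore motor Cenpe by 2.38 ± 0.40, the spindle-associated Ckap2 by 2.39 ± 0.36 and Ckap2l by 2.41 ± 0.36, and the scaffold Iqgap3 by 2.72 ± 0.43. The members that rose were Wee1, a kinase that holds back mitosis and a known clock target, with 2.06, 4.26 and 6.27 CPM at ZT5 and 10.3, 13.9 and 17.2 CPM at ZT17 and a rise of 1.67 ± 0.22 (adjusted p = 0.000120), and the cyclin E2 gene Ccne2 (1.38 ± 0.26), which overlaps Ints8. The genes that fell and are named here were scarce. The more abundant Ccnd1 and Pcna averaged 28.9 and 25.9 CPM at ZT5 and 21.1 and 29.7 CPM at ZT17, scaled over all 34 libraries of 4 weeks. In whole liver, fewer dividing cells and less RNA per cell cannot be told apart.

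Autophagy genes fell in 5 of 22 (22.7%, against 7.07% of all genes) and rose in 2 (9.09%, near the 8.19% of all genes), with a median of -0.04. The number that fell was 3 to 6 with 1 library left out and 2 without replicate 2 or 3 of every group. Ulk1, the initiating kinase (ENSMUSG00000029512, chromosome 5, 110784488 to 110810097), had 121, 173 and 189 CPM at ZT5 and 47.98, 70.3 and 79.7 CPM at ZT17 and fell by 1.25 ± 0.14 (adjusted p = 2.83e-05), with no overlap. Gabarapl1, an ATG8 protein gene, fell by 1.19 ± 0.17, whereas Bnip3, a receptor for mitophagy, rose by 0.93 ± 0.18. Of 16 glucocorticoid targets, 5 rose and 2 fell (median -0.06), and with 1 library left out 4 to 6 rose and 1 to 3 fell. Fkbp5, a cochaperone of the glucocorticoid receptor, had 43.5, 56.05 and 68.9 CPM at ZT5 and 105, 154 and 195 CPM at ZT17 and rose by 1.48 ± 0.16 (adjusted p = 1.93e-05), and Ddit4, an inhibitor of mTORC1, rose by 1.40 ± 0.33. Klf9, a transcription factor, had 148, 167 and 187 CPM at ZT5 and 50.5, 79.3 and 102 CPM at ZT17 and fell by 1.08 ± 0.16 (adjusted p = 0.000220). The kinase gene Sgk1 fell by 0.91 ± 0.28 (adjusted p = 0.0343). It was at 159 CPM in replicate 1 of Ctr at ZT5, without which it was not called (-0.53, adjusted p = 0.0833), nor was it without replicate 1 or 2 of Ctr at ZT17, 3 of HFD at ZT17, or 2 or 3 of HFD at ZT5 (0.0517 to 0.0833 over these 6), nor without the 2 libraries of lowest GC correlation (0.0581).

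Immediate early genes fell in 2 of 13 (15.4%, against 7.07% of all genes) and rose in 0 (DESeq2 gave 0 up and 2 down), with a median of -0.29, and of -0.11 without replicate 1 of Ctr at ZT5. Without a replicate number of every group 1 or 2 fell. Egr1, with 15.4, 17.7 and 46.4 CPM at ZT5 and 4.74, 10.6 and 12.5 CPM at ZT17, fell by 1.24 ± 0.28 (adjusted p = 0.00677), and Junb by 1.16 ± 0.31. Egr1 was not called in a fit to all 34 libraries of 4 weeks (0.0628), and was called without 1 ZT21 library whose labels give 2 ages (0.0452). In the growth hormone and IGF axis 2 of 12 rose and 2 fell (16.7% each, against 8.19% and 7.07% of all genes), with a median of -0.27, which lay between -0.36 and -0.09 with 1 library left out, and was -0.19, 0.03 and 0.05 without replicate 1, 2 or 3 of every group, where 0 or 1 rose and 1 fell. Igf1, the growth factor secreted by the liver under growth hormone (ENSMUSG00000020053, chromosome 10, 87858265 to 87937042), had 539, 672 and 814 CPM at ZT5 and 793, 1037 and 1276 CPM at ZT17 and rose by 0.58 ± 0.14 (adjusted p = 0.0119). Igfbp3, an IGF carrier, fell by 0.62 ± 0.14 and Stat5b, the mediator of growth hormone signalling, by 0.55 ± 0.14, in the latter with no overlap between times.

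Secreted plasma proteins rose in 4 of 28 and fell in 3 (14.3% and 10.7%, against 8.19% and 7.07% of all genes), with a median of 0.01. Between 1 and 3 fell with 1 library left out, and without a replicate number of every group 0 to 2. Apoa2, an HDL apolipoprotein, had 826, 980.4 and 1323 CPM at ZT5 and 1252, 1857 and 3792 CPM at ZT17 and rose by 1.03 ± 0.19 (adjusted p = 0.00175), and Apoc3, an inhibitor of lipoprotein clearance, rose by 0.80 ± 0.13. The 3 that fell were the fibrinogen chains. Fga had 5371, 5938 and 15720.1 CPM at ZT5 and 2975, 3852 and 4451 CPM at ZT17, with the highest value in replicate 1 of Ctr at ZT5, the mouse with high acute phase genes, and fell by 0.99 ± 0.24 (adjusted p = 0.0101). Without that mouse Fga changed by -0.64 (adjusted p = 0.00119), Fgb by -0.47 (0.0128) and Fgg by -0.38 (0.0446), against -0.99, -0.84 and -0.76 with it. Fgb was not called without replicate 1 or 2 of Ctr at ZT17 (0.0574 to 0.058), and Fgg was called only without 1 of the 3 Ctr mice at ZT5 or replicate 2 of HFD at ZT17 (0.0523 to 0.0992 otherwise). DESeq2 called neither (0.0683 for Fgb and 0.126 for Fgg), and Fgg was also lost with RLE scaling (0.0504), with a replicate block (0.0769) and without the 2 libraries of lowest GC correlation (0.0588). Alb was not called (0.22).

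The remaining genes of largest change belong to no list. Tfrc, the transferrin receptor, which takes up iron (ENSMUSG00000022797, chromosome 16, 32608920 to 32632794), had 11.03, 21.2 and 31.3 CPM at ZT5 and 77.04, 191 and 208 CPM at ZT17, with no overlap, and rose by 2.96 ± 0.25 (adjusted p = 2.65e-06). Cyp26b1, an enzyme that degrades retinoic acid, had 0.979, 2.62 and 3.62 CPM at ZT5 and 12.5, 19.5 and 44.8 CPM at ZT17 and rose by 3.37 ± 0.34 (adjusted p = 9.32e-06). Usp2, a deubiquitinase, rose by 2.75 ± 0.31, Fmo2, a flavin-containing monooxygenase, by 2.41 ± 0.24, Hapln1, a link protein of the extracellular matrix, by 2.56 ± 0.30, and Nat8f5, of an acetyltransferase family, by 3.16 ± 0.47. Myom3, a protein of the sarcomere's M band, rose by 3.61 ± 0.60 and Fam107a by 3.43 ± 0.37, each from under 1 CPM in every ZT5 mouse. AC161607.1, which overlaps Zbtb20, rose by 3.36 ± 0.32. Among the other falls, Syt1, a calcium sensor of vesicle release (ENSMUSG00000035864, chromosome 10, 108497650 to 109010982), had 14.7, 19.3 and 20.9 CPM at ZT5 and 1.42, 2.78 and 5.73 CPM at ZT17 and fell by 2.47 ± 0.25 (adjusted p = 9.32e-06), and Gbp10, an interferon-induced GTPase gene, fell by 2.36 ± 0.33 and Unc93a2 by 2.60 ± 0.36. Crybb3, a crystallin gene, fell by 2.50 ± 0.63 (adjusted p = 0.0121), with 6.25 CPM in replicate 1 of Ctr at ZT5 and an adjusted p of 0.0557 without the 2 libraries of lowest GC correlation. Besides those pointed out, Nat8f5, Usp2, Syt1, Kif20a, Srebf1, Mvd, Junb, Sod1, Wdr12, Rpl23a, Gbp10, Unc93a2 and G6pdx also overlap another gene, which leaves their counts uncertain in the same way.

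Of 56 tested markers of other cell types than hepatocytes 9 were called (16.1%, near the 15.3% of all genes). None of 8 Kupffer cell and macrophage markers, of 7 endothelial markers or of 6 erythroid markers was called. Among stellate cell and fibroblast markers 4 of 8 fell (Col3a1, Reln, Col1a1 and Pdgfrb), and their sums were 465, 488 and 524 CPM at ZT5 and 320.3, 416 and 498 CPM at ZT17. Of 6 neutrophil markers tested S100a8 and S100a9 rose, with S100a9 at 0, 0.279 and 0.635 CPM at ZT5 and 0.341, 1.35 and 2.27 CPM at ZT17 (1.87 ± 0.59, adjusted p = 0.0416). The neutrophil markers summed to 2.65 to 6.62 CPM at ZT5 and 1.60 to 8.94 CPM at ZT17, so that the times overlapped. S100a9 was not called when any 1 of 9 libraries was left out (0.0513 to 0.09), all but replicate 2 of Ctr at ZT17, 1 of Ctr at ZT5 and 2 of HFD at ZT17, nor with GC content as a covariate (0.0553), with a replicate block (0.0586) or without the 2 libraries of lowest GC correlation (0.0601). A T and NK cell marker rose (Cd4, of 8), 1 B cell marker fell (Ms4a1, of 6), 1 cholangiocyte marker rose (Krt19, of 6) and 1 hepatocyte marker rose (Cps1, of 7). The part of cell composition in the other results was not tested.

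Each diet was then taken by itself. In Ctr mice 203 genes rose (1.20%) and 191 fell (1.13%), and in HFD mice 428 rose (2.54%) and 348 fell (2.06%). The diets shared 289 called genes, all in the same direction, which is 73.4% of those called in Ctr and 37.2% of those in HFD. Over all 16858 genes, 73.5% had the same sign in both diets, 2.34% were called in Ctr and 4.60% in HFD. Nr1d1 changed by -5.35 in Ctr and -5.28 in HFD, and Cry1 by 3.18 and 3.09. Dbp changed by -1.55 and -2.85, and Hspa5 by 0.97 and 1.60. Cytosolic ribosomal protein genes had 0 risen members in Ctr and 11 in HFD, against 1.20% and 2.54% of all genes, and sterol synthesis 6 and 4. A call in one diet and not the other is not a difference, and the difference itself was called for 0 of 16858 genes in edgeR, with 384 at an unadjusted p under 0.05 and 1 in DESeq2. That gene was Rpl7a (Ctr -0.76, HFD 1.26, adjusted p = 0.0441 in DESeq2 and 1.00 in edgeR). Gm9800 (-0.61 and 0.84) and Nbl1 (2.52 and -1.06) were the others of lowest p. The counts per diet were 961 in Ctr and 1394 in HFD with DESeq2 and moved with single mice. In Ctr there were 243 without replicate 2 of Ctr at ZT17 and 227, 194 and 206 without replicates 1, 2 and 3 of Ctr at ZT5. In HFD there were 1221 without replicate 3 of Ctr at ZT17, 373 and 374 without replicates 2 and 3 of HFD at ZT17, and 260, 292 and 225 without replicates 1, 2 and 3 of HFD at ZT5.

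The same comparison in 12 other mice of 16 weeks, with 3 per diet and time, called 1689 of 17545 genes higher (9.63%) and 1829 lower (10.4%) at ZT17, 3518 in all (20.1%). Of 2557 genes called at 4 weeks and tested at both ages, 1386 were called at 16 weeks (54.2%, and 39.7% of the 3489 called there), 1381 of them in the same direction. Over all 16324 genes tested at both ages, 70.5% had the same sign at both and 21.4% were called at 16 weeks. Nr1d1 changed by -5.12 at 16 weeks against -5.31 at 4 weeks, Cry1 by 2.78 against 3.13 and Thrsp by 4.19 against 3.36. Lists moved alike in part, and their counts at 16 weeks stand against the 9.63% of genes higher and the 10.4% lower there. At 16 weeks 20 of 24 cytosolic chaperones rose and 0 fell, with a median of 0.92, and 15 of 25 sterol synthesis genes rose (median 0.58). Of the clock genes 7 rose and 4 fell, with a median of 0.15. Cell cycle genes were called in 2 of 26 in each direction at 16 weeks, with a median of -0.23, where Ccnb1 had a change of -1.52 (adjusted p = 0.136) and Plk1 of -0.39 (adjusted p = 0.743). Ccnb1 levels there were 0.107, 0.309 and 2.18 CPM at ZT5 and 0.0608, 0.181 and 0.447 CPM at ZT17. Of the cytosolic ribosomal protein genes, 80 of which were measured at 4 weeks, 3 rose at 16 weeks (median 0.20). Mitochondrially encoded genes rose in 1 of 13 (median 0.35). The variation between mice of a group, as the biological coefficient that edgeR estimates, came to 0.254 for the 4-week and 0.169 for the 16-week libraries. At 4 weeks it was 0.212 with GC content as a covariate and 0.219 without the 2 libraries of lowest GC correlation.

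**Figure D3:**
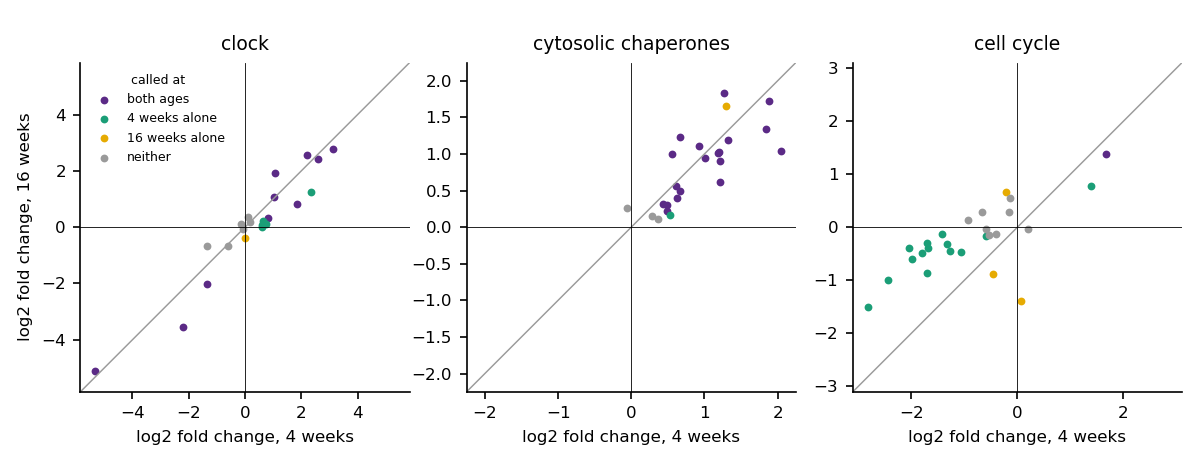
Log2 fold change from ZT5 to ZT17 at 4 weeks (horizontal axis) and 16 weeks (vertical axis) for the members of 3 gene lists, with a diagonal of equal change and colours for the age at which a gene was called. Clock and chaperone genes called at both ages lie on the same side of 0 at both, and cell cycle genes that fell at 4 weeks lie between the diagonal and 0 at 16 weeks.

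The difference between the ages was itself called for 24 of 16324 genes (0.147%), with the change from ZT5 to ZT17 higher at 16 weeks in 9 (0.0551%) and lower in 15 (0.0919%), and 2147 genes at an unadjusted p under 0.05. The count was 177 with DESeq2, 39 with a replicate block, 5 to 95 with 1 library left out and 0 without replicate 3 of every group. No member of the clock, cytosolic chaperone or cell cycle lists was among them. Of genes outside the cell cycle list, Espl1, the separase gene, was (-1.82 at 4 weeks, 1.07 at 16 weeks, difference 2.88, adjusted p = 0.0274), as was Ccnf, cyclin F (0.08 and 0.90, difference 0.80, adjusted p = 0.0391). Espl1 was scarce, with at most 2.12 CPM at 4 weeks and 0.447 CPM at 16 weeks. These 2 were named after their values were seen. Acot4 was called too (1.05 at 4 weeks, 0.06 at 16 weeks, difference -1.02, adjusted p = 0.0391). Chrna4, a nicotinic receptor subunit (ENSMUSG00000027577, chromosome 2, 181018380 to 181043546), had 2.32, 4.19 and 6.82 CPM at ZT5 and 2.93, 4.98 and 8.76 CPM at ZT17 at 4 weeks, where it was not called, and 2.34, 3.55 and 3.71 CPM at ZT5 and 14.8, 22.99 and 43.1 CPM at ZT17 at 16 weeks, a rise of 3.07 (difference 2.65, adjusted p = 0.00726). Ppp1r3b, a glycogen-targeting subunit of protein phosphatase 1, changed by 0.53 at 4 weeks and 1.71 at 16 weeks (adjusted p of the difference = 0.0134). The complement gene C4a had -0.06 and 2.03. G6pdx, the entry enzyme of the pentose phosphate pathway, changed by -0.55 and 0.58, and Ticam1, an adaptor of Toll-like receptors, by -0.07 and 0.74. In the other direction, Sult1d1, a sulfotransferase, had 90.5, 114 and 134 CPM at ZT5 and 288, 449.6 and 793 CPM at ZT17 at 4 weeks and changed by 2.09 there and 0.59 at 16 weeks (adjusted p of the difference = 0.0201). The tubulin gene Tuba8 changed by 1.06 and -0.35, Cyp3a25 by 0.46 and -0.37, 9030616G12Rik by 0.92 and -0.52, and N4bp2l1 by 0.18 and -0.85. The changes of 5 genes called at both ages had opposite signs, named after their values were seen: Cyp3a25, G6pdx, Pla2g7 (0.90 and -0.58), Smpd3 (-0.95 and 0.86) and S100a9 (1.87 and -1.39). The difference between the ages was not called for the last 3 (adjusted p = 0.0819, 0.0641 and 0.0720), and Smpd3 overlaps Prmt7. The 4-week call of G6pdx was lost for 9 of 12 libraries (adjusted p between 0.068 and 0.0976), all but replicate 1 of Ctr at ZT17, 3 of Ctr at ZT5 and 1 of HFD at ZT17, and also with GC content as a covariate (0.0906), without a filter on low counts (0.0513) and without the 2 libraries of lowest GC correlation (0.13).

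The calls of some age differences depended on single libraries of the 24, while the differences stayed about as large. In the fits that lost the call, the difference was -1.51 for Sult1d1, 1.91 to 2.06 for C4a and -1.02 to -0.94 for N4bp2l1. It was 1.03 to 1.13 for G6pdx, 0.74 to 0.82 for Ticam1 and 2.72 to 2.93 for Espl1. For Ccnf it was 0.74 to 0.83 and for Acot4 -1.04 to -0.92. The call for Sult1d1 was lost without replicate 1 of HFD at ZT17 at 16 weeks (adjusted p = 0.0551), and that for C4a without this library or replicate 2 of Ctr at ZT17 at 16 weeks (0.0503 to 0.0563). For N4bp2l1 it was lost without these 2, replicate 2 of HFD at ZT17 at 16 weeks or replicate 3 of HFD at ZT17 at 4 weeks (0.0549 to 0.0627). The call for G6pdx was lost for 12 libraries (0.0516 to 0.0795): at 16 weeks replicates 2 and 3 of Ctr and all of HFD at ZT17, 1 of Ctr and all of HFD at ZT5, and at 4 weeks 3 of HFD at ZT17, 2 of Ctr and 1 of HFD at ZT5. For Ticam1 it was lost for 15 (0.0565 to 0.0897): at 16 weeks all at ZT17, replicates 1 and 3 of Ctr and 1 and 2 of HFD at ZT5, and at 4 weeks 2 and 3 of HFD at ZT17, 2 of Ctr and 1 and 2 of HFD at ZT5. The call was lost for 8 libraries for Espl1 (0.0503 to 0.0649), 14 for Ccnf (0.0563 to 0.0797) and 14 for Acot4 (0.0534 to 0.097), the last also without the 2 libraries of lowest GC correlation (0.095).

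All 34 libraries of 4 weeks, at 6 times with 5 or 6 mice each, place the comparison within the day. For 1 of them, replicate 3 of HFD at ZT21, the title gives 4 weeks and another label 16 weeks, and it was kept by its title. The 2 times fell near the peak of some genes and on the slope of others. Nr1d1 averaged 12.1, 55.1, 40.8, 12.04, 1.37 and 0.887 CPM at the 6 times from ZT1 to ZT21, and ZT5 was its peak. Cry1 was lowest at ZT5 and rose to its peak at ZT21, with 26.2, 7.06, 9.76, 38.96, 61.6 and 70.6 CPM at the same times. Dbp peaked at ZT9, between the 2 times compared, with 0.342, 20.9, 170.4, 27.3, 4.28 and 2.36 CPM. Tef also peaked at ZT9, with 24.5, 58.9, 179, 139, 90.1 and 52.4 CPM, so that ZT5 lay on its upward and ZT17 on its downward slope. Arntl had its trough at ZT9 and its peak at ZT21, with 31.8, 12.2, 0.899, 7.98, 25.7 and 32.9 CPM. The lipogenic gene Thrsp stayed high through the dark, with 267, 123, 542, 1156, 1255 and 1101 CPM. Hsph1 was lowest at ZT5, with 92.4, 38.2, 68.6, 141, 137 and 141 CPM, and Ccnb1 highest there, with 3.50, 6.80, 2.09, 1.15, 0.945 and 0.940 CPM. Chrna4, which differed between the ages, peaked at ZT21 with 31.1 CPM (32.4 without the library with 2 ages on its labels, which had 24.5). Without that library the ZT21 means of Nr1d1, Cry1 and Arntl were 0.805, 69.3 and 32.5 CPM, and the peaks and troughs named here stayed at the same times. The 12 libraries compared are part of these 34.

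**Figure D4:**
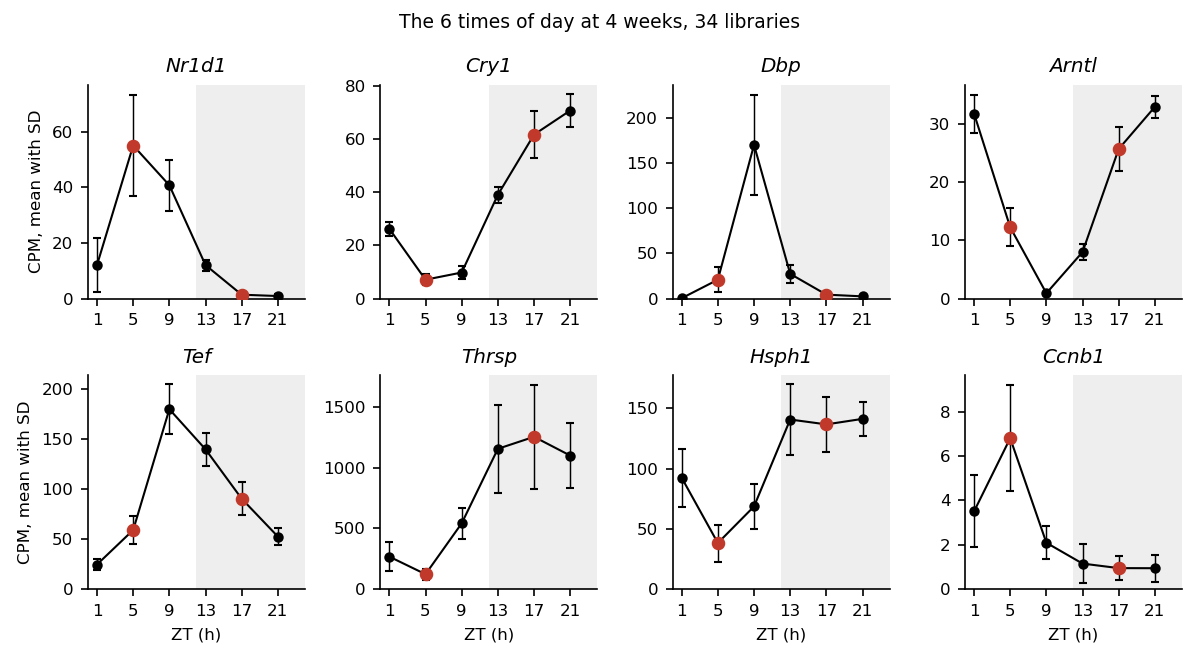
Mean CPM with standard deviation of 8 genes at the 6 times at 4 weeks (horizontal axis, ZT in h; 5 or 6 mice per time, both diets), with the times ZT5 and ZT17 in red and the dark phase in grey. Dbp and Tef peak at ZT9, outside the 2 times compared, while Nr1d1 and Ccnb1 peak at ZT5.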

How the data were processed

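The deposited values are raw counts per gene, without normalization, in a separate table for each age, with gene length in bases given by the authors. According to the submitters' notes, reads were aligned with HISAT2 2.0.5 and counted with featureCounts 1.5.0-p3, on Ensembl release 94 of GRCm38. The strand setting is not stated, so genes that overlap another gene are uncertain. Of the 4-week columns, 2 matched no labelled sample and were not used. Genes detected (count above 0) in 50% or more of the Ctr libraries and also of the HFD libraries were tested with edgeR 4.0.16 (TMM scaling, quasi-likelihood test, diet as covariate, Benjamini-Hochberg adjustment over all genes tested), and DESeq2 1.42.0 was an alternative. Contrasts within each diet and between diets came from a model with a mean per group. The difference between ages came from a model with terms for age, for diet within each age and for time within each age. Library measures were compared by exact permutation within diets over 400 arrangements. Genes were named by a rule: all clock genes, the 12 largest rises and falls with a mean of at least 1 CPM and no overlap between times (without Gm and Rik gene models), up to 3 called members of each list in each direction and its 2 most abundant members, the 5 genes of lowest p in each direction between ages with a mean of at least 1 CPM at both ages, the 3 of lowest p between diets, and the most abundant gene of each marker list. From the abundant members, only those that add to the text are given. Members and lists were chosen with earlier results of these data known. The code was tested on simulated data. Alternatives were other scaling, filters and tools, a replicate block, a GC covariate, all 34 libraries of 4 weeks, and leaving out replicates and libraries. The alternatives without the 2 libraries of lowest GC correlation and without 1 ZT21 library whose labels give 2 ages were chosen after seeing the data, and age differences of Acot4, Espl1 and Ccnf were added then. Some genes are not reported here.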

Additional observations from a re-analysis of the deposited data

Results flagged for a closer look

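Within the 6 libraries of each time, a value was set aside when its gap to the nearest other library took an unusually large part of the group's range (Dixon's test at 95%). Chance gives such a value in about 1 in 20 groups, and 18 stood apart of 276 groups examined. Replicate 1 of Ctr at ZT5 held the highest ZT5 level of Crybb3 (6.25 CPM), Derl3 (25.6), Sgk1 (159), Nnmt (327), Fga (15720.1), Fgb (12722) and Fgg (12938). Other ZT5 mice stood apart for Pnpla3 (2.19 CPM, replicate 2 of Ctr), Ppp1r3b (341, replicate 3 of Ctr) and Egr1 (46.4, replicate 3 of HFD). At ZT17, replicate 3 of Ctr was highest for Cyp2e1 (9907 CPM), Hsph1 (186) and Hspa8 (2288) and lowest for C4a (0.866) and Ccnf (11.8). Replicate 3 of HFD was highest for Cry1 (78.5 CPM) and Junb (32.96). Replicate 1 of Ctr at ZT17 had the fewest genes detected (16248).

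The change from ZT5 to ZT17 differed between the ages, by the test of the difference itself in edgeR, for 13 named genes. On the log2 scale, the change at 16 weeks exceeded that at 4 weeks by 2.88 for Espl1, 2.65 for Chrna4, 2.06 for C4a, 1.17 for Ppp1r3b, 1.11 for G6pdx and 0.80 for both Ccnf and Ticam1. The difference was -1.52 for Sult1d1, -1.46 for 9030616G12Rik, -1.43 for Tuba8, -1.04 for N4bp2l1, -1.02 for Acot4 and -0.85 for Cyp3a25.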

How the results depend on the processing

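The count of 2573 genes became 3332 with DESeq2 (2539 shared), 2585 with RLE scaling, 2735 with another low-count filter, 3116 without a filter, 2495 with a replicate block, 2984 with GC content as a covariate, 2626 with both and 3307 in a fit to all 34 libraries. It was 3426 in that fit without the ZT21 library whose labels give 2 ages, an alternative chosen after seeing the data, where Cyp2e1 was called (0.0126). In all of them no gene called in the comparison changed direction. Within diets, Ctr had 961 genes with DESeq2, 944 with the covariate and 828 with all 34 libraries, and HFD 1394, 1286 and 1311. Without the library with 2 ages on its labels there were 821 and 1338 in a fit to the other 33. The difference between diets had 1 gene with DESeq2, and that between ages 177 with DESeq2 and 39 with the replicate block. The cause was not tested. Leaving out a replicate number or a library gave 915 to 2751 genes for the comparison. Without replicate 1, 2 or 3 of every group, fits of 8 libraries, there were 2529, 915 and 1002. The same alternatives gave 39 to 467 for Ctr and 44 to 1221 for HFD. For replicate numbers alone, there were 1924 to 2422 at 16 weeks (1924 and 2043 without replicates 1 and 2).

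The count between ages lay between 0 and 95 with libraries left out. It was 15, 6, 5, 8 and 10 without replicate 1 or 2 of Ctr or 1, 2 or 3 of HFD at ZT17 at 16 weeks, 54, 12, 11 and 14 without replicate 2 or 3 of Ctr or 1 or 2 of HFD at ZT5 at 16 weeks, 65, 69, 95 and 10 without replicate 1 or 2 of Ctr or 1 or 3 of HFD at ZT17 at 4 weeks, and 13 and 12 without replicate 2 of Ctr or 1 of HFD at ZT5 at 4 weeks.

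Of 116 named genes called in the comparison, 16, 29 and 26 were not called without replicate 1, 2 or 3 of every group, and of 13 age differences 7, 12 and 13. With replicate block and covariate Tat (0.0613), Rpl39 (0.101), S100a9 (0.112), G6pdx (0.0577) and mt-Co1 (0.212) were not called, and with the block alone Sgk1 (0.0516) and mt-Co1 (0.0509). Medians of lists near 0 changed sign with 1 library left out: -0.09 to 0.02 for fatty acid oxidation, -0.04 to 0.19 for bile acid and sterol export, -0.19 to 0.06 for glucocorticoid targets, -0.10 to 0.03 for glutathione and NRF2, -0.04 to 0.10 for secreted plasma proteins and -0.0958 to 0.00117 for autophagy. Without a replicate number of every group the growth hormone and IGF median was -0.19 to 0.05.

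Some genes that were not called changed sign. Clock had -0.0169 with the covariate and -0.0029 without the 2 libraries of lowest GC correlation, and Csnk1d 0.003 and Rbm3 -0.0342 with replicate block and covariate. The 4-week change of C4a was 0.0975 with the covariate, 0.0522 with both and 0.1606 without the 2 libraries. Cyp2e1 and Scd1, not called, were called without a filter (adjusted p = 0.0151 and 0.00235) and with a replicate block (0.0397 and 0.0346), and Cyp2e1 also with DESeq2 (0.0421) and all 34 libraries (0.0151). With 1 mouse or replicate number left out, the change ranged from -0.2242 to 0.2474 for Bhlhe40, -0.2558 to 0.0229 for Csnk1e, -1.1427 to 0.0893 for Npas2, -0.0634 to 0.1574 for Rbm3, -0.0761 to 0.7209 for Chrna4, -0.0294 to 0.2024 for Ccnf, -0.2545 to 0.2061 for C4a, -0.1712 to 0.0091 for Ticam1 and -0.0238 to 0.2842 for N4bp2l1.

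With 3 mice per diet and time, calls near the threshold depended on single mice. The strand setting of the counts is unknown, so counts are uncertain where gene models overlap. The mice at ZT5 and ZT17 were different animals, food intake was not part of these data, and 2 times of day cannot give a phase or an amplitude.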
